A study of Mus musculus with 8 samples.

Results

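ERRα ChIP-seq peaks at the genes of the mitochondrial carrier family were examined in skeletal muscle and liver. A gene was a member when its symbol began with Slc25a or was Ucp1, Ucp2 or Ucp3, and a peak was counted when its centre lay within 20 kb of the transcription start site (TSS) to which the authors' annotation assigned it. RefSeq holds 50 such protein-coding genes among 21896 in all. In the 4 peak lists together, 45 of them were named at any distance and 40 had a peak within 20 kb, a state called bound below. These 40 genes held 241 of the 63890 peaks within 20 kb. The mice were male, 2 to 3 months old and on a C57BL/6N background, and were either wild type (WT) or carried ERRα 3SA, a form of the receptor in which phosphorylated serines are replaced by alanine in the whole animal. Gastrocnemius and soleus of 5 mice, or livers of 2 mice, were pooled per genotype at zeitgeber time 9, and according to the labels 3 immunoprecipitations were combined into each ChIP library. Each genotype and tissue therefore had 1 ChIP library and 1 list, with 1 input library beside it, so the genotypes were compared without a replicate check and without a p-value.

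Carriers of this family sit in the inner mitochondrial membrane, with few exceptions, and exchange nucleotides, phosphate, respiratory substrates, amino acids and cofactors between matrix and cytosol. The adenine nucleotide translocases exchange ADP for ATP, the phosphate carrier brings in phosphate for ATP synthase, and the uncoupling proteins let protons or metabolites cross the membrane. ERRα is an orphan nuclear receptor of genes of oxidative metabolism and binds the ERR response element (ERRE), written here as TCAAGGTCA. Binding measured on whole tissue cannot tell binding in fewer cells from weaker binding in each cell.

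An exact ERRE on either strand occurred at 20 positions within the called intervals of carrier peaks, at 18 carriers. The sequences of 10 windows are given because they show the element at the 4 sites found in all 4 lists (the first 5 lines, since Slc25a23 has a pair) and in intervals of muscle alone, of 3 lists, of liver alone or of 1 list (the last 5). Each was read 5′ to 3′ on the strand of the element from GRCm38.p6, 81 bases long, with the ERRE in capitals. They come, in this order, from chr11:102407826-102407906 (plus strand), chrX:36796156-36796236 (plus), chr17:57058409-57058489 (plus), chr17:57058735-57058815 (plus), chr10:91137071-91137151 (plus), chr8:46220776-46220856 (minus), chr13:56419747-56419827 (plus), chr6:6212527-6212607 (plus), chr14:75802812-75802892 (plus) and chr7:100482877-100482957 (minus).
Slc25a39 near the TSS: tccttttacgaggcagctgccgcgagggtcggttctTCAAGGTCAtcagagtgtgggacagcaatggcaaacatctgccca
Slc25a5 intron 1: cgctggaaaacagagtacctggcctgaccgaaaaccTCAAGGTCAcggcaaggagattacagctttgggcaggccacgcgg
Slc25a23 intron 1, distal copy: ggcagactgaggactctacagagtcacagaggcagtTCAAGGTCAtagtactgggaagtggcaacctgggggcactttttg
Slc25a23 intron 1, proximal copy: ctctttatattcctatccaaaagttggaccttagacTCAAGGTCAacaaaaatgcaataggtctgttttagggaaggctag
Slc25a3 upstream: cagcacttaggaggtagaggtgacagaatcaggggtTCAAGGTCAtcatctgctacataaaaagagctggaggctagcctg
Slc25a4 upstream: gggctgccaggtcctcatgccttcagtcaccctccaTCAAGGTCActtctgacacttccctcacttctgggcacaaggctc
Slc25a48 upstream: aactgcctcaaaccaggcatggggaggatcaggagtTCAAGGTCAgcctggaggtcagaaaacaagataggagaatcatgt
Slc25a13 intron 1: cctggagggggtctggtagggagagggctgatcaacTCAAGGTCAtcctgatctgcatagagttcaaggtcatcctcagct
Slc25a30 upstream: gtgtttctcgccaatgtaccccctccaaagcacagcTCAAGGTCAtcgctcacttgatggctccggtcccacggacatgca
Ucp3 intron 6: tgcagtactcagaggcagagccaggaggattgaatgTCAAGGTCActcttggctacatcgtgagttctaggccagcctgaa

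The Slc25a13 window holds a second copy in lower case, which starts 27 bases after the first. The Slc25a23 copies start 326 bases apart, and the same intervals spanned both in all 4 lists.

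The lists held 25427 peaks (WT muscle), 50647 (ERRα 3SA muscle), 21813 (WT liver) and 29040 (ERRα 3SA liver). Peak scores are whole numbers from the authors' peak caller and start at 30. They were used to rank peaks within a list (rank 1 is the highest, and tied peaks share the best rank of the tie) and to count peaks past a score of 100 or 50. The read depth behind each list is unknown, so a given score need not mean the same in 2 lists, and such counts are to be read against all genes or peaks of the same list. As a check of the tissues, 10 muscle marker genes and 10 liver marker genes were looked up. Bound muscle markers numbered 8 and 9 in the WT and ERRα 3SA muscle lists and 6 in each liver list, and bound liver markers 2 and 6 in the muscle lists and 6 in each liver list, so that by this count the ERRα 3SA muscle list held as many liver markers as the liver lists. With a score of 100 or more, the muscle markers numbered 5 and 6 in muscle against 1 and 2 in liver, and the liver markers 0 and 0 against 1 and 3. Alb, Cps1 and Fgb, defining genes of hepatocytes, were bound in no list.

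Carriers were bound more often than the average protein-coding gene in each of the 4 lists. In WT muscle 24 of 50 were bound, or 48.0% (95% Wilson interval 34.8–61.5, counting error only), beside 34.5% of all genes. In ERRα 3SA muscle 31 were bound, or 62.0% (48.2–74.1), beside 47.9%. The liver lists held 31 bound carriers in WT, also 62.0%, beside 29.9%, and 32 in ERRα 3SA, or 64.0% (50.1–75.9), beside 37.7%. With a score of 100 or more the carriers numbered 5 in WT muscle (10%) beside 2.87% of all genes, 9 in ERRα 3SA muscle (18.0%) beside 5.49%, 12 in WT liver (24.0%) beside 8.02%, and 16 in ERRα 3SA liver (32.0%) beside 11.9%. Any list held 40 of the 50 carriers (80.0%) beside 66.7% of all genes, and all 4 lists held 15 (30%) beside 12.5%. The count in all 4 lists was 4 (8.0%) at a score of 100 or more, beside 1.79% of all genes. It was 6 at a score of 50 or more, and 26 where any RefSeq transcript start within 20 kb counted. The share of all genes in all 4 lists was not counted at these last settings.

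The plasma membrane and other transporters that share the Slc prefix but not the Slc25 family had a share near that of the carriers in muscle and a lower one in liver. Of 328 such genes, 45.7% (40.4–51.1) were bound in WT muscle and 65.5% (60.3–70.5) in ERRα 3SA muscle, and 41.2% (36.0–46.6) and 52.1% (46.7–57.5) in the liver lists. The subunits and assembly factors of respiratory complex I whose symbols begin with Nduf lay at or above the carriers. Of these 49 genes, 67.3% (53.4–78.8) were bound in WT muscle and 69.4% in either ERRα 3SA list. At a score of 100 or more in ERRα 3SA muscle, 44.9% of the Nduf genes were counted beside 18.0% of the carriers, 10.3% of the 78 mitochondrial ribosomal protein genes and 7.93% of the other Slc genes. The gap between Nduf genes and carriers was narrower in the other lists. The shares were 24.5% and 10.0% in WT muscle, 30.6% and 24.0% in WT liver, and 46.9% and 32.0% in ERRα 3SA liver.

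**Figure D1:**
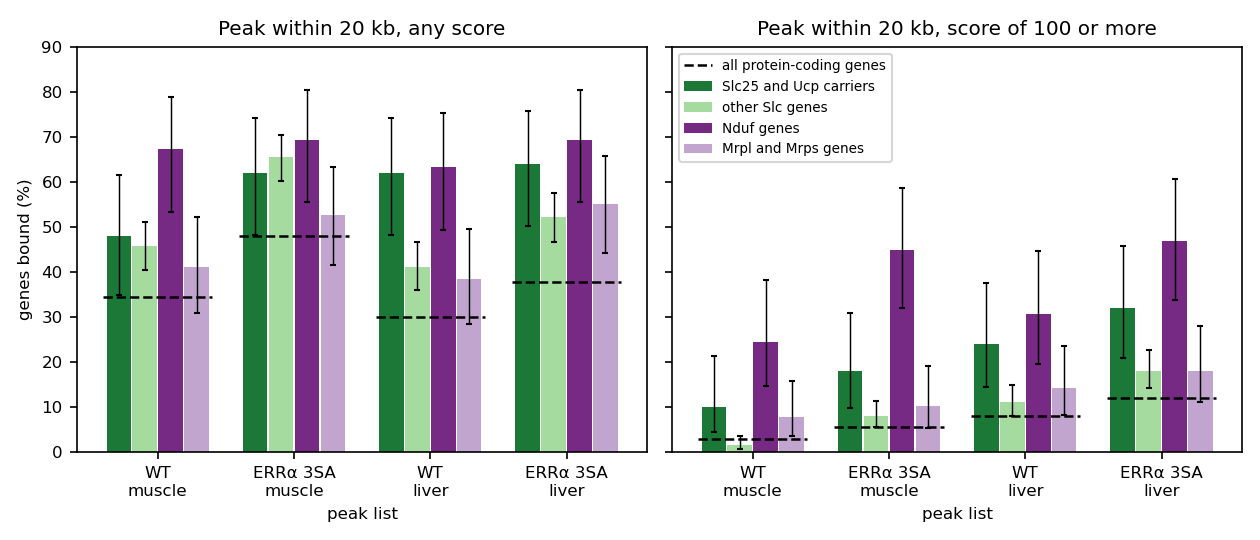
Share of genes bound (%, y axis) in each peak list (x axis) for the 50 carriers, 328 other Slc genes, 49 Nduf genes and 78 Mrpl and Mrps genes, with any score (left) or a score of 100 or more (right). Error bars are 95% Wilson intervals for counting error and dashed lines give the share of all 21896 protein-coding genes; the carrier bars stand above the dashed line in all 4 lists in both panels.

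Peaks in the top 1% of a list were found at 3 carriers in each muscle list, and at 1 in WT and 2 in ERRα 3SA liver. The share of all genes with such a peak was not counted. These counts therefore do not show whether carriers differ from other genes at the highest ranks. At the other end, 29 of the 38 carrier peaks in WT muscle and 60 of the 77 in ERRα 3SA muscle scored under 50, or 76.3% and 77.9%, beside 81.8% and 82.3% of all peaks within 20 kb. In liver 24 of 50 and 39 of 76 did, or 48.0% and 51.3%, beside 57.7% and 52.6%. The best peak of 8 carriers in WT muscle and of 6 in ERRα 3SA muscle had the lowest score that occurs in the list. That score was held by 44.7% of the carrier peaks in WT muscle, beside 33.0% of all peaks within 20 kb. In ERRα 3SA muscle the shares were 39.0% and 34.3%.

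**Figure D2:**
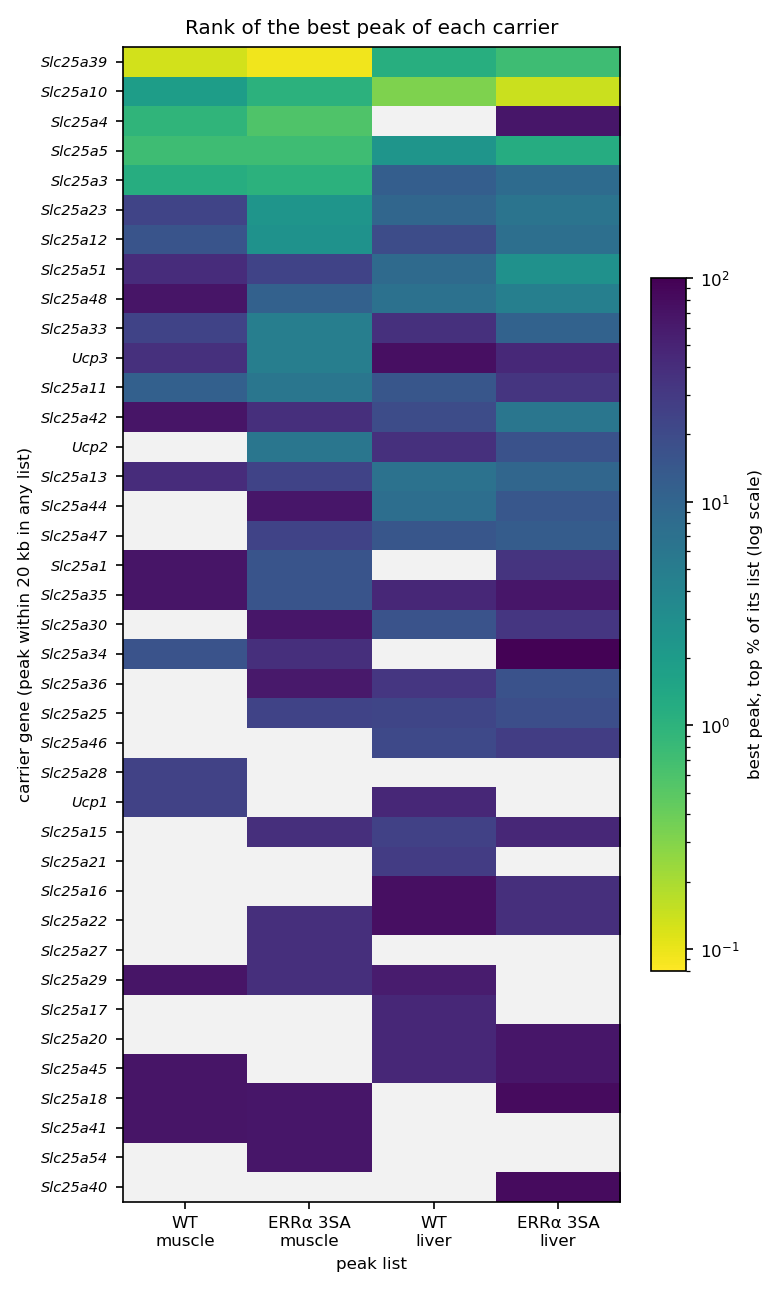
Best peak within 20 kb of the bound carriers named in the text (rows, ordered by their highest rank in any list) in the 4 lists (columns), coloured by the percentage of the list that ranks as high or higher (log scale, yellow highest); pale grey marks no peak. Slc25a39 and Slc25a10 lead, and the lower rows are dark or empty.

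The adenine nucleotide and phosphate carriers held some of the highest-ranking peaks. Slc25a5, which encodes the widely expressed translocase ANT2, had 1 site in intron 1 in all 4 lists, at chrX:36795391-36797080. It ranked 186 in WT and 366 in ERRα 3SA muscle (scores 426 and 422), and 523 in WT and 349 in ERRα 3SA liver (scores 433 and 744), so it stood within the top 2.4% of each list. The ERRE printed above lay between -211 and 126 bp from the centre of the interval, depending on the list. Slc25a4, the muscle and heart isoform ANT1, was bound differently in the tissues. Its promoter peak ranked 238 in WT muscle (score 350) and 288 in ERRα 3SA muscle (502), was missing from the WT liver list and ranked 18865 in ERRα 3SA liver with a score of 37. A second Slc25a4 site, at chr8:46220416-46220955, ranked 2140 in WT muscle (score 67, -9718 bp) and 1428 in ERRα 3SA muscle (score 156, -9676 bp) and was in neither liver list. The promoter site held no ERRE and not even the core AAGGTCA, whereas the upstream site held the ERRE printed above.

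Slc25a3, the phosphate carrier, was bound at its TSS and far upstream in all 4 lists. The TSS site, at chr10:91123190-91124216, ranked 301 in WT and 519 in ERRα 3SA muscle (scores 290 and 334), and 2568 in WT and 2398 in ERRα 3SA liver (scores 136 and 218), higher in muscle than in liver. It contained neither the ERRE nor AAGGTCA. The upstream site, at a median of -13236 bp, carried the ERRE printed above but scored only 36, 30, 44 and 31 in the same order, and the authors' annotation placed the peak centres in SINE repeats, of the type B1_Mus1 in 3 lists and ID_B1 in WT liver. A further muscle pair lay at -3067 bp in WT (score 50) and -3080 bp in ERRα 3SA (score 37).

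Among the ATP-Mg/phosphate carriers, Slc25a23 was the one bound at the same site in all 4 lists. Its intron 1 site with the ERRE pair, at chr17:57058023-57059237, scored 45 in WT muscle (rank 5892) and 177 in ERRα 3SA muscle (rank 1218), and 160 and 260 in WT and ERRα 3SA liver (ranks 2091 and 1860). The WT muscle peak ranked lowest of the 4. The authors' annotation placed the peak centre in a SINE repeat of the type ID_B1 in WT muscle and in ERRα 3SA liver. In ERRα 3SA muscle it lay in a simple repeat, and in WT liver in no repeat. A second intronic site of Slc25a23 was found in liver alone, with scores of 104 in WT and 160 in ERRα 3SA. Slc25a25 was bound in 3 lists but not in WT muscle, and its best peaks lay at 11014 bp in WT liver (score 75) and 10841 bp in ERRα 3SA liver (score 112). Slc25a41 had peaks at the lowest muscle score of 30 in both muscle lists, and both lay in transcripts of the adjacent Slc25a23. Slc25a24 and Slc25a31 (the germ-cell translocase ANT4) had no peak within 20 kb.

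Carriers of respiratory substrates included the highest-ranking liver site of the family. Slc25a10, the dicarboxylate carrier that exchanges malate or succinate for phosphate, had a site at chr11:120506120-120507306, at a median of 14868 bp downstream of its TSS and beyond the end of the gene. That site ranked 41 in ERRα 3SA liver (score 2143) and 70 in WT liver (score 1337), and 520 and 486 in ERRα 3SA and WT muscle (scores 332 and 199). RefSeq places the non-coding gene Gm39490 over it and the glucagon receptor gene Gcgr 22472 bp from its centre, so that the assignment to Slc25a10 rests on the nearest TSS. No ERRE and no AAGGTCA lay in the called interval. At the Slc25a10 promoter itself, a peak annotated as promoter-TSS was found in ERRα 3SA muscle with a score of 36.

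The aspartate/glutamate carriers of the malate-aspartate shuttle differed in where they were bound. Slc25a12 (aralar, the isoform of muscle and brain) had a TSS site in all 4 lists, which scored 39 and 91 in WT and ERRα 3SA muscle and 89 and 231 in WT and ERRα 3SA liver. In muscle its best peak was another one, in intron 2, with a score of 50 at 13712 bp in WT and of 164 at 13780 bp in ERRα 3SA. Slc25a13 (citrin, the liver isoform) was led by the intron 1 site with the ERRE pair, at chr6:6212069-6213382. It scored 212 in WT liver (rank 1463) and 195 in ERRα 3SA liver (rank 2730), and only 36 in WT muscle, where the interval did not reach the ERREs. In ERRα 3SA muscle the sole Slc25a13 peak was another intronic one with a score of 42.

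Slc25a11, the 2-oxoglutarate/malate carrier of the same shuttle, had a promoter site in all 4 lists with scores of 57 and 83 in WT and ERRα 3SA muscle and 112 and 64 in WT and ERRα 3SA liver. The transcript named at that site was one of Rnf167, whose gene starts 473 bp from the site's centre, while the centre itself lies within Slc25a11. Each of the 8 carriers of this role group was bound in at least 1 list, beside 66.7% of all genes. The citrate carrier Slc25a1 was bound in 3 lists with scores up to 61, the glutamate carriers Slc25a18 and Slc25a22 in 3 lists each with scores up to 32 and 55, and the oxodicarboxylate carrier Slc25a21 in WT liver alone with a score of 62.

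**Figure D3:**
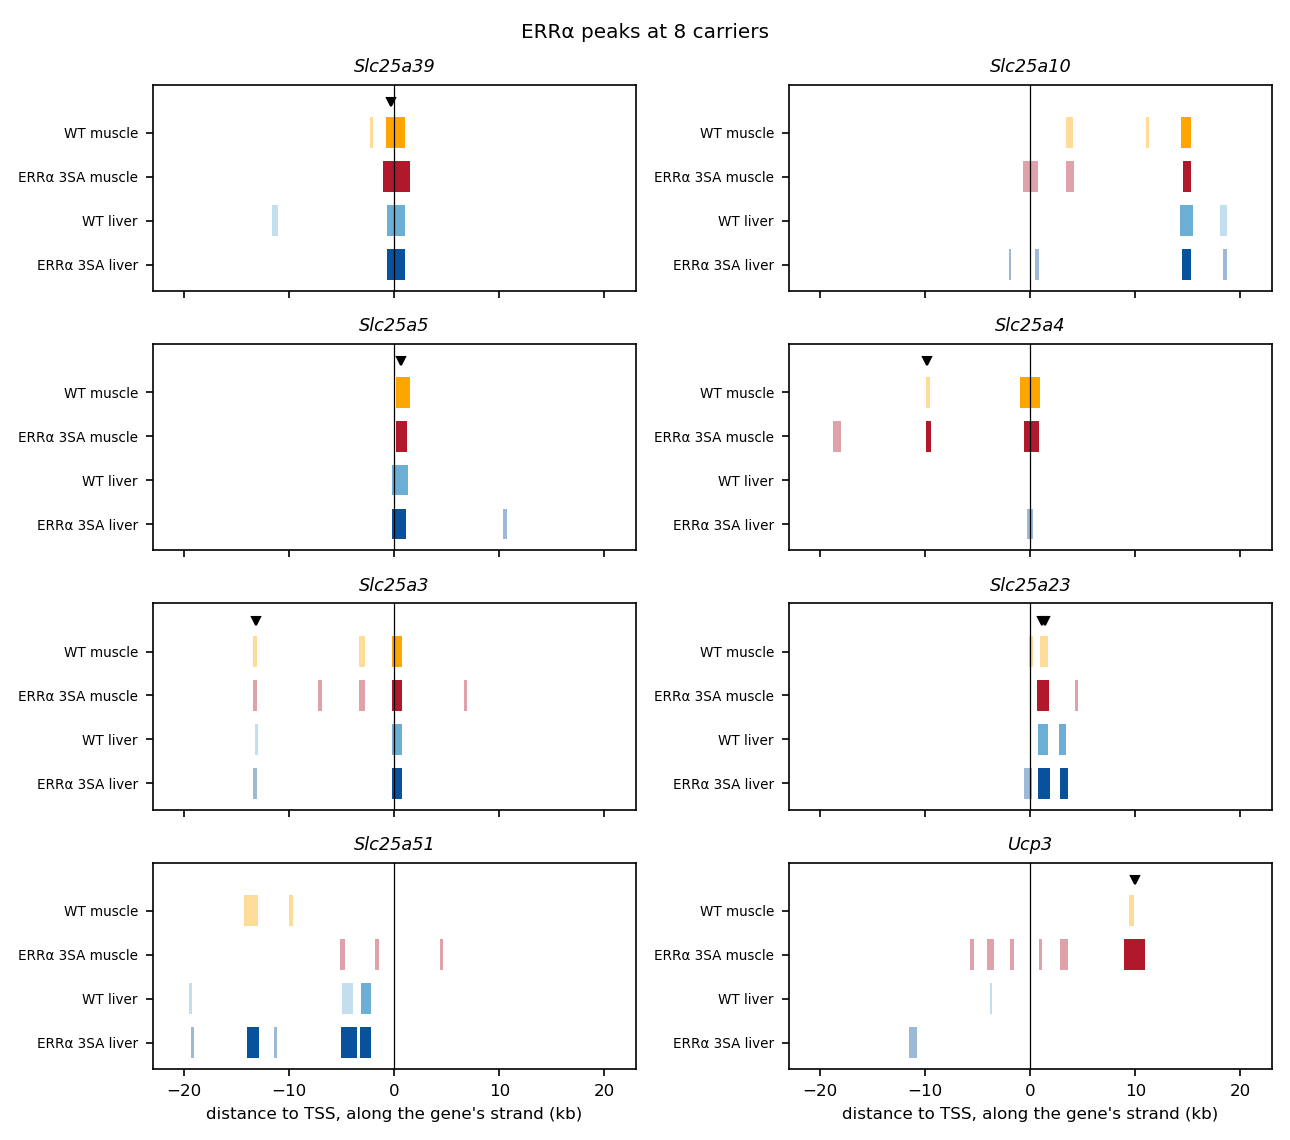
Called intervals at 8 carriers by distance to the TSS along the strand of the gene (kb, x axis), 1 row per list; full colour marks a score of 100 or more, pale colour a lower score, and black triangles an exact ERRE within an interval. The TSS sites of Slc25a39, Slc25a5 and Slc25a3 and the downstream site of Slc25a10 line up in all 4 lists, and the ERRE site upstream of Slc25a4 is confined to the muscle rows.

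The carriers of cofactors, nucleotides and iron contained the highest-ranking muscle peak. Slc25a39, which imports glutathione into mitochondria, had a broad site over its TSS at chr11:102406025-102408546. It ranked 33 in WT and 47 in ERRα 3SA muscle (scores 1297 and 1630), and 249 in WT and 213 in ERRα 3SA liver (scores 651 and 950), which is between the top 0.0928% and the top 1.14%. The ERRE of this site lay at -349 bp from the TSS and 455 to 581 bp from the centre of the interval, so it fell outside the central 300 bp in every list. Its relative Slc25a40 had a single peak, in ERRα 3SA liver, with a score of 32.

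Slc25a51, Slc25a42 and Slc25a36 ranked higher in liver than in muscle. Slc25a51, the NAD carrier, had a site at -2709 bp in WT liver (score 177, rank 1857) and -2742 bp in ERRα 3SA liver (score 459, rank 799), and its best muscle peaks scored 36 in WT and 42 in ERRα 3SA. Slc25a42, which carries coenzyme A, had an intronic site that scored 89 in WT liver (rank 4147) and 270 in ERRα 3SA liver (rank 1754), beside best scores of 30 and 36 in muscle. The pyrimidine nucleotide carrier Slc25a36 was led by a liver site at -7536 bp in WT (score 56) and -7493 bp in ERRα 3SA (score 119), with an ERRE in the interval. Its relative Slc25a33 ranked higher in muscle. Its upstream site, at a median of -3148 bp in all 4 lists, ranked 6108 in WT muscle (score 44, top 24.0%) and 2394 in ERRα 3SA muscle (score 100, top 4.73%), and 8204 in WT liver (score 49, top 37.6%) and 3042 in ERRα 3SA liver (score 177, top 10.5%).

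Slc25a16 had a peak in both liver lists, Slc25a17 in WT liver alone and the iron carrier Slc25a28 in WT muscle alone, all with scores of 55 or lower. Slc25a26, which carries S-adenosylmethionine, Slc25a32 and the iron carrier Slc25a37 had none within 20 kb.

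Of the 6 uncoupling proteins and relatives, 3 reached a score of 100 in some list, beside 14.4% of all genes, with 119 the highest. Ucp3, the uncoupling protein of skeletal muscle, had 6 peaks in ERRα 3SA muscle and 1 each in the other lists. Its best site, at 9614 bp in WT muscle (score 41, rank 9455) and 9910 bp in ERRα 3SA muscle (score 100, rank 2394), was annotated to exon 6 in WT and to intron 6 in ERRα 3SA. The ERRE printed above lay 16 bp from the centre of the ERRα 3SA interval and outside the WT one. Ucp2, which is adjacent to Ucp3, had no peak in WT muscle, a promoter peak with a score of 82 (rank 3101) in ERRα 3SA muscle, a peak of 49 in WT liver and one of 119 (rank 4837) at 8050 bp in ERRα 3SA liver, the last with an ERRE. The WT liver peak assigned to Ucp2 lay in an intron of Ucp3.

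Ucp1, the uncoupling protein of brown fat, had 1 peak in WT muscle at 18193 bp (score 42) and 1 in WT liver at -10493 bp (score 44), and none in either ERRα 3SA list. The related Slc25a30 was led by an upstream liver site with the ERRE printed above, which scored 104 at -15830 bp in WT and 67 at -15815 bp in ERRα 3SA, and its muscle peaks, in ERRα 3SA, scored 30. Slc25a27 had a single peak, in ERRα 3SA muscle, annotated to the promoter of Cyp39a1, and Slc25a14 had none.

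Carriers of acylcarnitine and amino acids formed a group of 6 genes, too few to tell its share bound from that of all genes. Slc25a20, the carnitine/acylcarnitine translocase through which long-chain fatty acids reach β-oxidation, was bound in neither muscle list. In liver it had 2 intron 1 peaks per genotype, with best scores of 44 in WT (rank 9851) and 37 in ERRα 3SA (rank 18865). Slc25a44, which carries branched-chain amino acids, had an intronic site that scored 194 in WT liver (rank 1644) and 135 in ERRα 3SA liver (rank 4219), and a muscle peak of 30 in ERRα 3SA. The ornithine carrier Slc25a15 and the basic amino acid carrier Slc25a29 were bound in 3 lists each, with scores up to 69 and 38, and the ornithine carrier Slc25a2 and the glycine carrier Slc25a38 in none. Of the 6 genes of this role, 1 and 3 were bound in WT and ERRα 3SA muscle and 4 and 3 in WT and ERRα 3SA liver. The shares of all genes were 34.5%, 47.9%, 29.9% and 37.7% in this order.

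Among the 9 carriers grouped here as other or unassigned, the liver peaks again ranked above the muscle peaks at Slc25a47 and Slc25a48. Slc25a48 had 8 peaks in ERRα 3SA liver, the most of any carrier in any list. Its best peak scored 207 at 1466 bp in WT liver (rank 1545) and 330 at 19724 bp in ERRα 3SA liver (rank 1320), while its best muscle scores were 30 in WT and 57 in ERRα 3SA, at the upstream ERRE site printed above. Slc25a47 had a peak upstream of its promoter that scored 112 in WT liver at -1646 bp and another that scored 153 in ERRα 3SA liver at -1135 bp. Their intervals overlapped and both held the ERRE, but their centres lay too far apart to count as the same site. Slc25a46, an outer membrane protein that shapes mitochondria, had a TSS peak in liver alone, with scores of 82 in WT and 75 in ERRα 3SA. Slc25a35 was bound in all 4 lists and Slc25a34 and Slc25a45 in 3, with scores up to 49, 49 and 44. Slc25a54 had 1 peak of 30 in ERRα 3SA muscle, and Slc25a43 and Slc25a53 had none.

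Between genotypes, more carriers were bound in ERRα 3SA than in WT muscle. Bound in both muscle lists were 21 carriers (42.0%, 29.4–55.8) beside 25.6% of all genes, in ERRα 3SA alone 10 (20%, 11.2–33.0) beside 22.4%, and in WT alone 3 (6.0%, 2.06–16.2) beside 8.94%. The 10 were Slc25a15, Slc25a22, Slc25a25, Slc25a27, Slc25a30, Slc25a36, Slc25a44, Slc25a47, Slc25a54 and Ucp2, and the 3 were Slc25a28, Slc25a45 and Ucp1. The shares bound in 1 genotype alone were thus near those of all genes. The ERRα 3SA list was then cut by score to the length of the WT list. Bound in ERRα 3SA alone were now 4 carriers, beside 12.8% of all genes, and in WT alone 8, beside 15.4%. The order of the genotypes thus turned. The WT list stayed whole, down to a score of 30. The cut fell among ERRα 3SA peaks tied at 36 and removed all that scored 35 or lower. Ties were broken by position in the list. The lowest score kept thus differed between the genotypes, and its part in the turn was not tested.

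In liver the genotypes were closer. Both liver lists held 27 carriers (54.0%, 40.4–67.0) beside 22.6% of all genes, ERRα 3SA alone 5 (10%, 4.35–21.4) beside 15.0%, and WT alone 4 (8.0%, 3.16–18.8) beside 7.28%. Slc25a1, Slc25a4, Slc25a18, Slc25a34 and Slc25a40 were bound in ERRα 3SA liver alone, and Slc25a17, Slc25a21, Slc25a29 and Ucp1 in WT liver alone. The best score of these 9 carriers in the liver list that held them was 62 or lower. With lists of equal length the order turned here too, with 1 of the 50 carriers bound in ERRα 3SA liver alone, beside 10.6% of all genes. In WT liver alone there were 5, beside 9.09%. Here too the WT list stayed whole, down to a score of 30, while the cut removed all ERRα 3SA peaks that scored 35 or lower. Ties at the cut were again broken by position in the list. The part of this difference in the turn was not tested.

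Sharing of the same site was counted when the centres of peaks in both genotypes lay within 300 bp. A shared peak was found at 13 carriers in muscle (26.0%, 15.9–39.6) beside 10.4% of all genes, and at 24 in liver (48.0%, 34.8–61.5) beside 17.3%. The muscle carriers were Slc25a3, Slc25a4, Slc25a5, Slc25a10, Slc25a11, Slc25a12, Slc25a23, Slc25a33, Slc25a34, Slc25a35, Slc25a39, Slc25a48 and Ucp3. Of the carrier peaks themselves, 18 of 38 in WT muscle had a partner in ERRα 3SA muscle, or 47.4% (32.5–62.7), beside 23.4% of all WT muscle peaks within 20 kb. In the other direction 18 of 77 did, or 23.4% (15.3–34.0), beside 12.9%. In liver 35 of 50 WT peaks were shared, or 70.0% (56.2–80.9), beside 49.2%, and 35 of 76 ERRα 3SA peaks, or 46.1% (35.3–57.2), beside 34.2%.

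Most high-scoring peaks were found in both genotypes, among carriers as among all peaks. All 5 WT and all 10 ERRα 3SA muscle peaks with a score of 100 or more had a partner in the other genotype. Their intervals were 56.6–100 and 72.2–100, beside 81.8% and 70.3% of all peaks with such scores. The liver counts were 14 of 15 in WT and 19 of 22 in ERRα 3SA. These shares were 93.3% (70.2–98.8) and 86.4% (66.7–95.3), beside 86.5% and 80.7%. The share of all peaks lay within the carrier interval in WT muscle and both liver lists, and just below it in ERRα 3SA muscle. A score of 100 was reached in ERRα 3SA muscle but not in WT muscle by 4 carriers (8.0%), beside 2.87% of all genes, and by none in WT alone, beside 0.251%. The 4 were Slc25a12, Slc25a23, Slc25a33 and Ucp3, and in each the peak had a WT partner that scored under 100. In liver 6 carriers (12.0%) reached 100 in ERRα 3SA alone, beside 4.63% of all genes, namely Slc25a12, Slc25a25, Slc25a33, Slc25a36, Slc25a42 and Ucp2. In WT liver alone 2 did (4.0%), beside 0.717%, namely Slc25a11 and Slc25a30. Of these 8, Ucp2 was the one without a partner in the other genotype.

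Between tissues, 30 of the 50 carriers were bound in at least 1 list of each tissue, beside 35.1% of all genes. In muscle lists alone there were 4 of the 50 (Slc25a27, Slc25a28, Slc25a41 and Slc25a54), beside 21.7%. In liver lists alone there were 6 of the 50 (Slc25a16, Slc25a17, Slc25a20, Slc25a21, Slc25a40 and Slc25a46), beside 9.82%. The scores of these 10 carriers reached 82 at most, at Slc25a46. By genotype, 18 carriers (36.0%) were bound in both tissues in WT mice, beside 16.9% of all genes. In ERRα 3SA mice there were 27 (54.0%), beside 26.9%. The share was higher in ERRα 3SA for carriers and for all genes alike. All 5 carriers with a WT muscle score of 100 or more were also bound in ERRα 3SA liver, Slc25a4 with a score of 37. All but Slc25a4 were bound in WT liver. The matching shares of all genes were not counted. With a score of 100 or more required in WT liver too, 4 of the 5 remained, beside 426 of 629 genes.

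Carrier peaks were mostly intronic except in WT muscle. Introns held 42.1%, 51.9%, 60.0% and 52.6% of them in WT muscle, ERRα 3SA muscle, WT liver and ERRα 3SA liver, beside 45.7%, 47.0%, 48.3% and 48.2% of all peaks within 20 kb. Promoters as annotated by the authors held 5 of 38 carrier peaks in WT muscle (13.2%, 5.75–27.3) beside 11.9%, and 7 of 77 in ERRα 3SA muscle (9.09%, 4.47–17.6) beside 8.18%. In liver they held 1 of 50 in WT (2.0%, 0.354–10.5), the Slc25a11 peak, beside 11.0%, and 5 of 76 in ERRα 3SA (6.58%, 2.84–14.5) beside 12.0%. Counted by distance instead, 22.0% of the WT liver carrier peaks lay within 1 kb of a TSS beside 20.6% of all, and these included peaks of Slc25a3, Slc25a5, Slc25a12, Slc25a13 and Slc25a39 that were annotated as intronic.

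**Figure D4:**
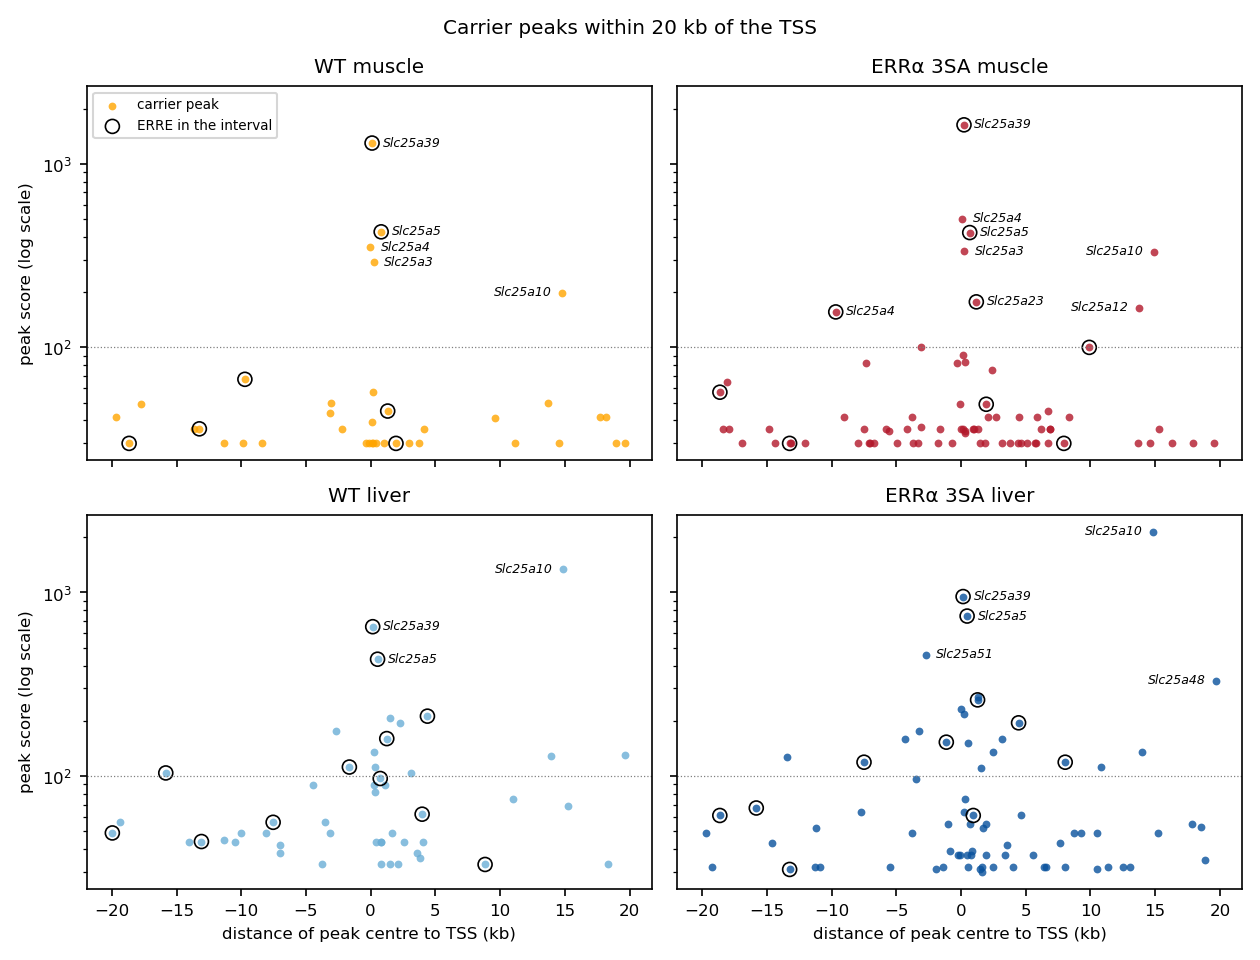
Score (y axis, log scale) against the distance of the peak centre to the TSS (kb, x axis) for the 38, 77, 50 and 76 carrier peaks within 20 kb of the 4 lists; rings mark an ERRE in the interval, the dotted line a score of 100, and names are given from a score of 150 in muscle and 300 in liver. Slc25a39 and Slc25a5, and in muscle Slc25a3 and Slc25a4, lie high near the TSS, Slc25a10, Slc25a48, Slc25a51, Slc25a12 and the second Slc25a4 site are named away from it, and low-scoring peaks spread over the whole range.

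Just inside the limit of 20 kb were peaks of Slc25a33 in WT liver (-19958 bp, score 49) and Slc25a48 in ERRα 3SA liver (19724 bp, score 330). Just outside were the liver peaks of Slc25a25 at -20111 bp in ERRα 3SA (score 231) and -20134 bp in WT (score 119), which scored higher than any Slc25a25 peak inside, and a peak of Slc25a51 in ERRα 3SA muscle (-20218 bp, score 42). By the transcript named in the authors' annotation, 141 of the 241 carrier peaks lay in or at the carrier itself, 70 were intergenic and 30 were in or at another gene, at 12 carriers. All 5 peaks of Slc25a34 upstream of its promoter lay in Plekhm2, and 4 peaks of Ucp3 in C2cd3.

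The ERRE was present in the central 300 bp of 5 of 38 carrier peaks in WT muscle, or 13.2% (5.75–27.3), beside 4.45% of all peaks within 20 kb, and of 7 of 77 in ERRα 3SA muscle, or 9.09% (4.47–17.6), beside 4.86%. In liver it was present in 8 of 50 WT peaks, or 16.0% (8.34–28.5), beside 15.2%, and in 9 of 76 ERRα 3SA peaks, or 11.8% (6.36–21.0), beside 14.9%. The share of all peaks lay within the interval of the carriers in both liver lists and in ERRα 3SA muscle, and just below it in WT muscle. Among peaks scoring 100 or more, 0 of 5 in WT muscle had an ERRE there (interval 0.0–43.4) beside 15.6% of all peaks with such scores, and 4 of 10 in ERRα 3SA muscle (16.8–68.7) beside 17.3%. In the RefSeq promoter table (GRCm38.p6, 250 bases before to 50 bases after each start), none of 49 promoters of 39 carriers held TCAAGGTCA on either strand, beside 0.423% of 32851 promoters of all genes. At so low a share among all genes, 49 promoters are too few to show whether carriers differ.

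Across lists, the 241 carrier peaks formed 165 sites when centres within 300 bp were joined. Sites found in 1 list numbered 114 (69.1%), in 2 lists 35 (21.2%), in 3 lists 7 (4.24%) and in all 4 lists 9 (5.45%). For all genes the same shares were 80.9%, 12.6%, 3.75% and 2.79% of 49728 sites. The 9 sites belonged to Slc25a3 (2 sites), Slc25a5, Slc25a10, Slc25a11, Slc25a12, Slc25a23, Slc25a33 and Slc25a39. An exact ERRE lay in 5.26% (2.43–11.0) of the sites in 1 list, 20% (10.0–35.9) of those in 2, 28.6% (8.22–64.1) of those in 3 and 44.4% (18.9–73.3) of those in 4, beside 5.90%, 22.1%, 33.7% and 33.9% for all genes. Median site width grew alongside, from 372 bp for carrier sites in 1 list to 691, 870 and 1054 bp, and its part in the ERRE share was not tested. Of the 9 sites in all 4 lists, 5 held the core AAGGTCA, including the 4 with the full ERRE and that of Slc25a33, and the other 4 did not.

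**Figure D5:**
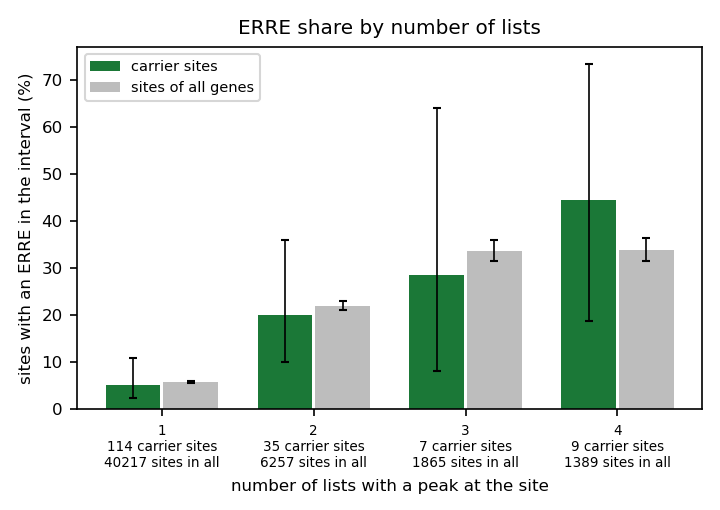
Share of sites with an exact ERRE in the called interval (%, y axis) by the number of lists with a peak at the site (x axis), for carrier sites (green) and sites of all genes (grey), with 95% Wilson intervals for counting error. The carrier share rises from 5.26% in 1 list to 44.4% in 4 lists, and its interval holds the value of all genes at each step.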

How the data were processed

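ERRα ChIP-seq of 8 samples was used: 4 ChIP samples with 1 peak list each and 4 input samples, which hold no values used here. According to the submitters' processing notes and the methods, the authors used Trimmomatic 0.36 for trimming, BWA 0.7.12 for mapping to mm10, Picard 2.0.1 for removing PCR duplicates, MACS2 2.1.1.20160309 for calling peaks against input and HOMER 4.9.1 for annotation. The deposited peak score is a number of the peak caller without a fixed range, CpG and GC contents are deposited as fractions of the interval, and distances to a TSS were deposited in bp from the authors' annotation. The lists hold no counts, so the depth is unknown.

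The family members, role groups, comparison genes and marker lists were chosen with earlier results of these data known. Genes were named by a rule: in full, the carriers with a best score of 100 or more in any list and Slc25a4, Slc25a5, Slc25a20, Ucp1, Ucp2 and Ucp3, and the peaks next to the limit of 20 kb; all others by the lists that hold them. The values of 1 carrier are not reported here, and it remains in the counts. Hosts of peaks outside the carrier were named after their values were seen. A gene counted as bound with a peak within 20 kb of its TSS, and 2 peaks counted as shared at a centre distance of up to 300 bp. Background shares are over RefSeq protein-coding genes of GRCm38.p6, or over all peaks within 20 kb. Positions are 1-based. GC contents recomputed from GRCm38.p6 equalled the deposited ones within 0.005 for all but 5 of the 126927 peaks. The ERRE was searched as TCAAGGTCA, with AAGGTCA as its core and TNAAGGTCA as an alternative. Shares carry 95% Wilson intervals. Overlap and motif search were tested on simulated data. Python 3.11.15, numpy 2.4.6, pandas 2.3.3, pysam 0.24.0 and matplotlib 3.10.9 were used. With 1 library per group no test was made.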

Additional observations from a re-analysis of the deposited data

Results flagged for a closer look

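With whole lists and promoters as annotated, the share of carrier peaks at promoters differed between genotypes in opposite directions in the tissues. In muscle it was 13.2% in WT and 9.09% in ERRα 3SA, a difference of ERRα 3SA minus WT of -4.07 percentage points, and in liver it was 2.0% and 6.58%, a difference of 4.58 points. These shares rest on 5 and 7 promoter peaks in muscle and on 1 and 5 in liver, and with 1 library per group the difference was not tested. Among all peaks within 20 kb the shares were 11.9% and 8.18% in muscle and 11.0% and 12.0% in liver. The directions among carriers did not hold at every other setting. With lists of equal length, the muscle shares of carrier peaks were 13.2% in WT and 18.2% in ERRα 3SA (all peaks 11.9% and 9.5%). With promoters taken as 1000 bp to the TSS, the liver shares were 22.0% in WT and 21.1% in ERRα 3SA (all peaks 20.6% and 22.6%).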

How the results depend on the processing

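Of 128 recomputed values, 87 stayed within the spread or within 1.5 times of the reported value and 41 moved. Those that moved are given here, against the reported values above. Counts of carriers are out of 50. With a score of at least 100, the carriers bound were 5 and 9 in WT and ERRα 3SA muscle. In WT and ERRα 3SA liver they were 12 and 16. The shares of all genes were 2.87%, 5.49%, 8.02% and 11.9% in this order. Bound in 1 genotype alone were 4 in ERRα 3SA and 0 in WT muscle and 2 in WT liver (all genes 2.87%, 0.251% and 0.717%). Those with a shared peak were 5 in muscle and 9 in liver (all genes 2.22% and 6.57%). Those bound in both tissues were 4 in WT and 7 in ERRα 3SA (all genes 1.95% and 3.78%). The ERRE share was 0.0% in WT muscle, 40.0% in ERRα 3SA muscle and 22.7% in ERRα 3SA liver (all peaks 15.6%, 17.3% and 23.8%). With a score of at least 50, bound carriers were 7 in WT muscle, 12 in ERRα 3SA muscle and 20 in WT liver. The shares of all genes were 8.07%, 13.5% and 14.9%. In 1 genotype alone there were 5 in ERRα 3SA and 0 in WT muscle and 2 in WT liver. Those shares of all genes were 8.05%, 2.58% and 1.9%. A shared muscle peak was found at 7 carriers (all genes 4.3%). Those bound in both tissues were 6 in WT and 11 in ERRα 3SA (all genes 4.5% and 8.54%). The ERRE share was then 29.4% in ERRα 3SA muscle and 21.6% in ERRα 3SA liver (all peaks 13.4% and 22.0%). The promoter share was 17.6% in ERRα 3SA muscle (all peaks 13.5%).

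With lists of equal length, 20 carriers were bound in ERRα 3SA muscle and 17 in both tissues in ERRα 3SA (all genes 31.9% and 17.5%). By genotype, 4 were bound in ERRα 3SA muscle alone, 8 in WT muscle alone and 1 in ERRα 3SA liver alone. The shares of all genes were 12.8%, 15.4% and 10.6%. In WT liver alone 5 were bound (all genes 9.09%). At this setting only the ERRα 3SA lists were shortened, by removing their lowest scores, and the WT lists stayed whole. The promoter and ERRE shares in ERRα 3SA muscle were both 18.2%, beside 9.5% and 7.27% of all peaks. With promoters taken as 1000 bp to the TSS, the shares were 31.6% and 18.2% in WT and ERRα 3SA muscle (all peaks 26.2% and 17.4%). In WT and ERRα 3SA liver they were 22.0% and 21.1% (all peaks 20.6% and 22.6%). Within 5 kb of the TSS, 8 carriers were bound in ERRα 3SA liver alone (all genes 11.9%). The promoter share in ERRα 3SA muscle was then 18.9% (all peaks 19.1%). With any RefSeq transcript start within 20 kb, 1 carrier was bound in WT muscle alone (all genes 7.94%). With centres within 100 bp, 6 carriers had a shared muscle peak (all genes 5.74%). Fewer peaks follow from the construction of the score and length settings; the cause of the other changes was not tested. A distance of 50 kb, centres within 1000 bp, intervals sharing a base, the motif TNAAGGTCA and the whole interval moved none of the values. No paired analysis was possible because each group has 1 library. The depth of the libraries is unknown, so the absence of a peak is not evidence that ERRα did not bind.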

Other observations

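The core AAGGTCA, the half-site that ERRα shares with other nuclear receptors, lay in the central 300 bp of 7 of 38 carrier peaks in WT muscle (18.4%, 95% Wilson interval 9.22–33.4) beside 13.8% of all peaks within 20 kb, and of 13 of 77 in ERRα 3SA muscle (16.9%, 10.1–26.8) beside 15.2%. In liver it lay in 20 of 50 in WT (40.0%, 27.6–53.8) beside 35.8%, and in 24 of 76 in ERRα 3SA (31.6%, 22.2–42.7) beside 35.5%. The carrier intervals held the share of all peaks in each list.

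Some carriers are close neighbours in the genome, so that the nearest TSS decides between members. Slc25a41 and Slc25a23 lie 2056 bp apart on chromosome 17, Slc25a54 and Slc25a24 6566 bp apart on chromosome 3, Ucp3 and Ucp2 6904 bp apart on chromosome 7, Slc25a29 and Slc25a47 13956 bp apart on chromosome 12, and Slc25a43 and Slc25a5 18289 bp apart on chromosome X.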
